A study of Mus musculus with 2 samples.

Results

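The genes described here encode plasma membrane and vesicle carriers of sugars, amino acids, peptides, monocarboxylates, vitamins, fatty acids and other organic solutes. They were chosen by symbol, as all genes with a probe in the solute carrier (SLC) families SLC1, SLC2, SLC5, SLC6, SLC7, SLC13, SLC15, SLC16, SLC17, SLC22, SLC23 and SLC27. The array held 158 probes for 128 such genes, among 39429 gene probes for 20659 named genes. The annotation lists 132 such genes, and Slc2a12, Slc6a5, Slc6a16 and Slc22a30 had no matched probe. Genes whose symbol ends in a letter, such as Slc6a20b, lie outside the pattern.

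RNA came from isolated glomeruli, the kidney's filters, and the mice were males aged 8 months. Both groups carried experimental lupus nephritis, induced by 0.5 ml of pristane oil given once into the peritoneum, and tissue was collected 4 months later. The WT group kept Sirpa, and in the Sirpa-/- group the gene had been deleted in podocytes only, the epithelial cells of the filter. The promoter that drove the deletion and how many animals stood behind each array were not given in the sources used here. Podocytes are named as the isolated material in the design text, but the sample labels name glomeruli collected with magnetic beads. Uninjected mice were not analysed here, so every value comes from pristane-treated tissue.

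Each group had 1 one-colour array, so no test between groups was possible and no p-value is given. A processed signal is the background-subtracted fluorescence intensity of a probe. A log2 difference is the value labelled Sirpa-/- minus the WT value, after each array was scaled to the 75th percentile of its gene probes. A gene was called higher or lower when it differed by at least 2-fold, and was counted as measured when its probe was well above background on both arrays. Between 85.3% and 86.7% of gene probes passed on each array, and 0 spots were saturated. The only Sirpa probe read 11624 under the WT label and 17316 under the Sirpa-/- label, a log2 difference of 0.64 that goes against the label. Its position relative to the deleted part is not known here, and the deletion is restricted to podocytes, so it does not check the label. All directions below are those of the array labelled Sirpa-/-.

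Carriers of these families move small organic molecules across membranes, either down their own gradient or coupled to sodium, protons, chloride or an exchanged solute. In the kidney many of them line the proximal tubule, where filtered glucose, amino acids, citrate, urate, lactate and vitamins are reclaimed and organic ions are secreted. Podocytes, endothelial cells and mesangial cells use another part of the set, among them the glucose carriers GLUT1 and GLUT4, to feed their own metabolism.

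Of the 128 genes, 114 were measured on both arrays, 3 were well above background on 1 array and 11 on neither. Among the 114, 0 stood 2-fold or more higher under the Sirpa-/- label, where 1.56% of all 18239 measured genes were, and 3 (2.63%) stood 2-fold or more lower, where 1.67% of all genes were. These 3 were Slc2a4 (GLUT4, the insulin-responsive glucose carrier), Slc6a13 (GAT2, a carrier of GABA and taurine) and Slc16a7 (MCT2, a pyruvate and lactate carrier). At 1.5-fold, 5 genes (4.39%) were higher against 4.34% of all genes, and 8 (7.02%) were lower against 5.27%. Below 0 lay 64 (56.1%), where 49.8% of all genes did, and above 0 lay 50, where 50.2% did. The median difference of the 114 was -0.04, beside 0.00 for all genes, and 88.6% of them differed by less than 1.5-fold, beside 90.4% of all genes. These shares lie near those of the whole array, and with 1 array a group nothing is read from them about the set as a whole.

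**Figure D1:**
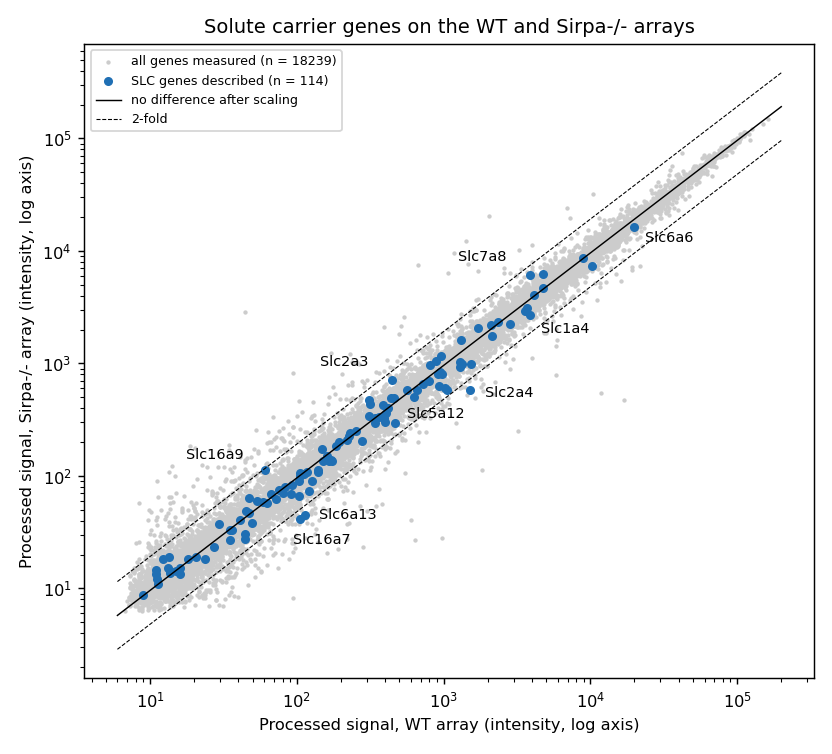
Processed signal (fluorescence intensity, log axes) on the WT array (x) and on the Sirpa-/- array (y), with all 18239 measured genes in grey and the 114 solute carrier genes in blue. The solid line marks no difference after scaling and the dashed lines 2-fold; Slc2a4, Slc6a13 and Slc16a7 lie below the lower dashed line, and no carrier lies above the upper.

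The error of each value was judged in 3 ways, all technical. The scanner software's own error came to 0.20 on the log2 difference of a bright gene and to more for dim ones. Beyond 2 times that error lay 24 of the 114 genes (21.1%), 8 higher and 16 lower, where 14.9% of all genes did. Over 350 probes printed 10 times, the log2 differences of single spots had a median SD of 0.07, which was 0.06 for the 244 brighter probes and 0.31 for the 106 dimmer ones. None of these figures covers the spread between mice.

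Slc2a4 had the largest difference and rested on a probe printed 10 times (A_51_P217498). Its spots read from 1419 to 1715 on the WT array, with a median of 1507, and from 533 to 624 on the array labelled Sirpa-/-, with a median of 576. The spots did not overlap, and all 10 pairs lay below 0. The difference was -1.33 ± 0.04 (SD over 10 spots of 1 array pair), or 2.52-fold lower. It was -1.24 with another background correction (normexp) and -1.37 in the authors' deposited table. On chromosome 11 the annotated neighbours Ybx2 (0.05) and Cldn7 (0.29) did not share the difference.

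Slc7a8 encodes LAT2, a light chain that exchanges neutral amino acids, and its probe was also printed 10 times. The spots read from 3600 to 4168 on the WT array (9 unmarked spots, median 3857) and from 5509 to 6654 on the other (10 spots, median 6079). The signals did not overlap, and the gene was 1.64-fold higher (log2 difference 0.71), or 0.73 ± 0.08 (SD) over the 9 spots unmarked on both arrays of 1 pair. A pair of further carriers with such probes differed little. Slc1a1, a glutamate carrier, had medians of 111 and 105, and Slc5a8, a sodium-coupled monocarboxylate carrier, of 67.1 and 68.4. The spots of the arrays overlapped for both genes.

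**Figure D2:**
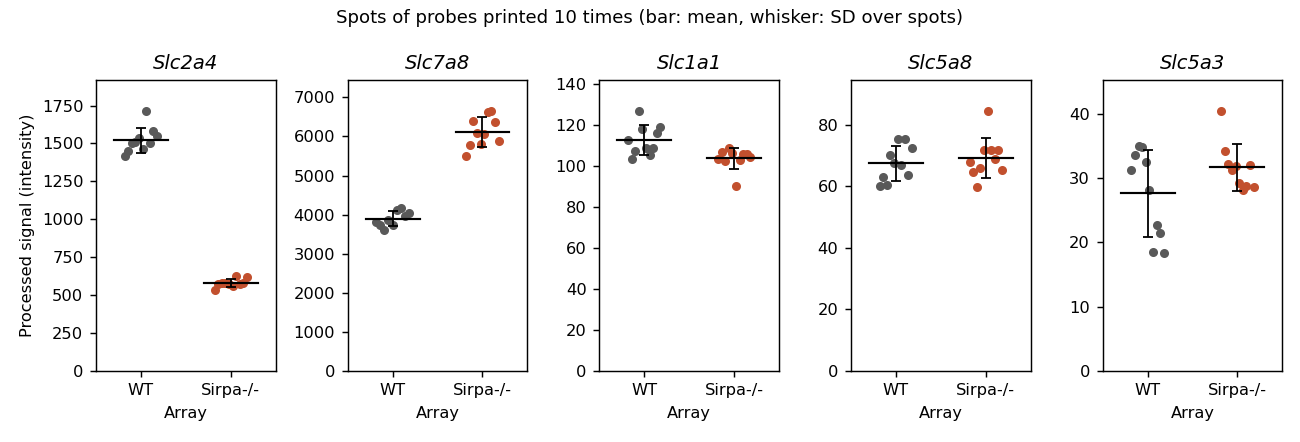
Processed signal (intensity, linear axes from 0) of every unmarked spot of the 5 carrier probes printed 10 times, on the WT and the Sirpa-/- array; bars are means and whiskers SD over spots. Slc2a4 is lower and Slc7a8 higher on the Sirpa-/- array with no overlap, while Slc1a1, Slc5a8 and the dim probe of Slc5a3 overlap.

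Sugar carriers other than Slc2a4 showed smaller differences. The SLC2 family of facilitative hexose carriers had a median of -0.08 over 10 measured genes. Slc2a3 (GLUT3, a high-affinity glucose carrier of neurons and leukocytes) read 444 and 706, which is 1.66-fold higher on the array labelled Sirpa-/-. Slc2a1 (GLUT1) read 8900 and 8712 (0.03), and Slc2a2 (GLUT2, the basolateral carrier of the proximal tubule) read 226 and 226 (0.06). Of these 3 glucose carriers, Slc2a3 alone was past 1.5-fold. The fructose carrier Slc2a5 gave -0.29, the hexose carrier Slc2a6 gave -0.22 (-0.09 on its other probe) and the urate carrier Slc2a9 -0.14. Slc2a7 was well above background under the WT label only, and was lower by at least 1.34-fold on the other array. That bound does not allow for the software error, which was 0.48 on its log2 difference.

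The sodium-coupled SLC5 family had a median of 0.05 over 10 genes, with values from -0.80 to 0.46. Slc5a2 (SGLT2, which reclaims most filtered glucose) read 933 and 635, a log2 difference of -0.49. Slc5a12, a lactate carrier of the proximal tubule, read 1060 and 585 on its brighter probe and 114 and 64.4 on the other, differences of -0.80 and -0.76 that match within the technical spread. The myo-inositol carrier Slc5a3, used by cells to balance osmotic stress, read 4783 and 6289 (0.46), with 0.29 ± 0.31 (SD over 10 spots of 1 array pair) on a dim second probe. Slc5a6, the carrier of biotin and pantothenate, gave 0.35, and Slc5a11, a second myo-inositol carrier, -0.25. Slc5a1 (SGLT1) was not well above background on either array.

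Amino acid carriers differed in both directions. In the SLC7 family, which holds cationic amino acid carriers and the light chains that pair with a heavy chain, the median was -0.12 over 12 genes and the range -0.67 to 0.71. Slc7a1 (CAT1, an arginine carrier) read 1546 and 986 (-0.59), and the tubular light chain Slc7a13 read 121 and 72.9 (-0.67). Slc7a4, an SLC7 member without a settled substrate, read 312 and 471 (0.65). Slc7a5 (LAT1, a leucine carrier) gave 0.52 on a probe that read 316 and 434, but 0.00 on its other probe at 233 and 223, so its direction is not settled. The heavy chain Slc3a2, which carries LAT1 and LAT2 to the membrane, gave 0.51, and the tubular heavy chain Slc3a1 gave 0.00. Slc7a15 gave 0.58 at dim signals of 13.4 and 19.2.

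In the SLC1 family of glutamate and neutral amino acid carriers, 5 of 6 measured genes lay below 0, where 49.8% of all genes did. The family median was -0.08. Slc1a5 (ASCT2, a glutamine carrier) read 1024 and 606 on one probe and 237 and 148 on the other, for differences of -0.69 and -0.62. Slc1a4 (ASCT1) read 3891 and 2673 (-0.48). Slc1a2, a glutamate carrier of astrocytes, gave 0.40 at dim signals of 29.4 and 37.2, and Slc1a7 -0.10. With normexp the family split into 3 genes above and 3 below 0.

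The SLC6 family of sodium- and chloride-coupled carriers had a median of 0.03 over 16 genes. Slc6a13 read 113 and 44.5, or 2.44-fold lower on the array labelled Sirpa-/- (log2 difference -1.29). It rested on 1 spot at dim signals; the value was -0.55 with normexp, which adds an offset of 50 to every signal, and the gene did not pass a stricter filter on dim probes. Its neighbour on chromosome 6, the betaine carrier Slc6a12, gave 0.22. Slc6a6, the taurine carrier, read 19962 and 16219 (-0.24). The serotonin carrier Slc6a4, found on platelets as well as neurons, read 103 and 66.1 (-0.58), and the dopamine carrier Slc6a3 gave 0.63 at 12.4 and 18.4. The GABA carrier Slc6a11 gave 0.47 on a dim probe. Signals this low fall in the class where single spots scattered most.

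Several carriers of the amino acid response, the programme that the transcription factor ATF4 drives when amino acids run short or the endoplasmic reticulum is stressed, lay below 0. Of 7 listed genes 6 were measured, and 5 of these lay below 0, where 49.8% of all genes did. Their median was -0.40, beside 0.00 over all genes, and it stayed between -0.45 and -0.37 under the other settings tried. The 5 were Slc1a5, Slc7a1, Slc1a4, the arginine and lysine carrier Slc7a3 (-0.32) and the glycine carrier Slc6a9 (-0.28, with -0.22 on its other probe). Slc7a5 was the exception, on 1 of its 2 probes. Slc7a11, the cystine carrier, was not well above background, at 2.32 and 1.72. Atf4 itself gave -0.04, a value at the level of RNA that leaves its protein unmeasured.

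The promoters of these genes are shown because ATF4 binds composite elements whose core reads TGATGCAA. The core was searched on both strands in windows from 250 bases before to 50 bases after the gene start (RefSeq, GRCm38.p6), and was found in 294 of 32851 windows (0.895%). Of 121 windows of carrier genes 5 held it (4.13%), belonging to 4 of 94 genes, among them 2 of the 4 amino acid response genes with a window. The core was chosen with the differences known, and a match is a description, not a site. The amino acid response list was itself drawn up as targets of ATF4, so matches within it test nothing. In the lines below, 5′ to 3′ on the gene's strand, capitals mark the core or its reverse complement, and each line shows part of the window around the core, ending at the core's last base where the core crosses the gene start.
Slc7a11 (chr3:50443623-50443719, minus strand): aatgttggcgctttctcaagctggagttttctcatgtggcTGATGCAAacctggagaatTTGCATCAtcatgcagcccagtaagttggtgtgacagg
Slc1a4 (chr11:20332710-20332757, minus strand): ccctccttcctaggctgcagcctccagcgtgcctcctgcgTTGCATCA
Slc7a7 (chr14:54417938-54417985, minus strand): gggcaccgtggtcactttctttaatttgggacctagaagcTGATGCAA
Slc17a1 (chr13:23868877-23868954, plus strand): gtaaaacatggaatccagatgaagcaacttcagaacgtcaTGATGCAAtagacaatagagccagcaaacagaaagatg
Slc7a11 holds the core on each strand within a short stretch. The 3 others were measured, and their differences were -0.48 for Slc1a4, -0.42 for Slc7a7 (a basolateral light chain of the proximal tubule) and -0.35 for Slc17a1. Slc7a7 and Slc17a1 are on the list of proximal tubule carriers, not on that of the amino acid response. A part of the core in these differences was not tested.

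Monocarboxylate carriers of the SLC16 family had a median of 0.06 over 13 genes and held both a low and a high extreme. Slc16a7 read 105 and 41.7, or 2.42-fold lower on the array labelled Sirpa-/- (log2 difference -1.28), on 1 spot. Its unprocessed median intensity was 108 and 65, over local backgrounds of 20 and 15, and without the software's further correction the difference was -0.73, under 2-fold. With normexp it was -0.26. Its size thus moved with how the spot was corrected. Of its neighbours on chromosome 10, Tafa2 read 39.9 and 19.1, also lower, and Lrig3 gave 0.04. Slc16a9, which carries carnitine, read 61.2 and 112 on one probe (1.92-fold higher, log2 difference 0.94) and 43.1 and 64.3 on the other (0.64). The value of 0.94 was the highest of the whole set, and its direction was shared by both probes. With normexp it was 0.55.

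The lactate carriers Slc16a1 (MCT1) and Slc16a3 (MCT4) gave 0.16 and -0.09. Together with Slc2a1 and Slc2a3 they form the list of carriers tied to hypoxia and glycolysis, with a median of 0.10 over 4 genes and only Slc2a3 past 1.5-fold. Slc16a5 gave 0.48 and -0.10 on its 2 probes. Slc16a6 gave 0.09 on its brighter probe (105 and 107) and -1.16 on the dimmer (15.4 and 6.59), the widest gap between probes among these genes.

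Of the 22 genes with more than 1 measured probe, 15 had the same sign on the brightest 2, beside 2880 of 4561 such genes of the whole array. The median gap between those probes was 0.25 on the log2 scale, beside 0.17 over the same 4561. A gap of 1 or more occurred in 1 of the 22 (4.55%), beside 4.30% of all genes. Differences of about 0.25 on a lone probe therefore lie within the usual gap between probes, whereas Slc5a12, Slc1a5, Slc17a3 and Slc16a9 kept their direction and most of their size.

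**Figure D3:**
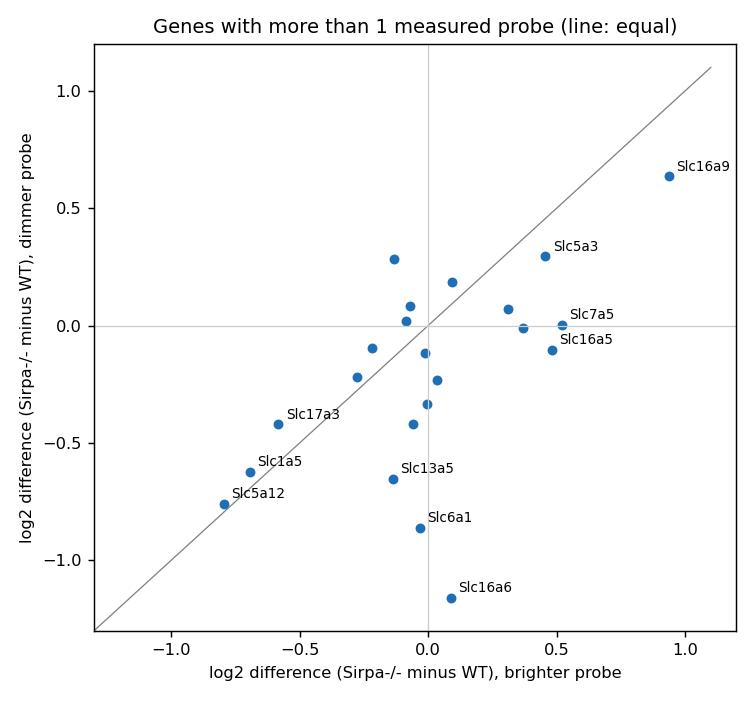
Log2 difference (Sirpa-/- minus WT) on the brighter probe (x) and on the dimmer probe (y) of the 22 carriers with more than 1 measured probe; the diagonal marks equal values. Slc5a12, Slc1a5 and Slc17a3 lie near the diagonal, Slc16a9 lies below it at 0.94 and 0.64, and Slc16a6 lies far below it at 0.09 and -1.16.

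Organic ion carriers of the SLC22 family secrete drugs, toxins and metabolites into the tubule. Of 24 genes 22 were measured, none of them at 2-fold, with a median of -0.06 and a range of -0.63 to 0.33. Slc22a7 (OAT2) read 44.1 and 27.3 (-0.63), Slc22a2 (OCT2) 276 and 206 (-0.36) and Slc22a19 91.8 and 68.8 (-0.35). The organic anion carriers Slc22a6 (OAT1) and Slc22a8 (OAT3), which lie side by side on chromosome 19, gave -0.25 and -0.04, the latter at 20.4 and 19.0. On the higher side were Slc22a23 (0.33) and Slc22a5 (OCTN2, the carnitine carrier, 0.31). With normexp the family median turned to 0.10, where that of all genes was 0.07, so its direction is not settled. Slc22a19 and its neighbours on chromosome 19 are close copies of each other, and their probes may read more than 1 gene.

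The SLC17 family of phosphate, urate and vesicular carriers had a median of 0.03 over 7 genes. Slc17a3 read 465 and 297 (-0.58), with -0.42 on its other probe, and its neighbour on chromosome 13, Slc17a1, read 401 and 301 (-0.35). The lysosomal sialic acid carrier Slc17a5 gave 0.31 and 0.07 on its 2 probes, and Slc17a4 0.37 and -0.01 at dim signals. All 6 carriers on the urate list lay below 0, where 49.8% of all genes did, at a median of -0.19. They ranged from -0.58 for Slc17a3 to -0.04 for Slc22a8, with Slc22a12 (URAT1) at -0.07. With normexp 4 of the 6 lay below 0. All but Slc2a9 are also on the list of proximal tubule carriers described below.

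All 4 measured peptide and histidine carriers of the SLC15 family lay below 0, where 49.8% of all genes did, at a median of -0.29. These were the renal peptide carrier Slc15a2 (1295 and 1034, -0.26), the lysosomal carriers Slc15a3 (126 and 90.1, -0.42) and Slc15a4 (2147 and 1736, -0.25), and Slc15a5 (-0.32 at dim signals). With normexp 3 of the 4 did, among them Slc15a3 at only -0.01. The lysosomal pair is known from macrophages, dendritic cells and B cells. Of 8 macrophage markers 7 were measured, with 6 below 0, where 49.8% of all genes were, and a median of -0.31. With normexp 4 of these 7 markers lay below 0 and 3 above. Their summed scaled signals (each relative to its array's 75th percentile) were 10.5 for WT and 11.2 for the other array. The rise of that sum was carried by the brightest marker, Mrc1 (7203 and 8827, 0.36), which went against the median. All 8 B cell markers lay above 0, where 50.2% of all genes did, with a median of 1.33 and sums of 0.924 and 3.53. T cell, neutrophil and erythroid markers had medians of 0.69, 0.46 and 1.502 over 7 genes each, and mesangial and smooth muscle markers -0.05 over 8. Of the macrophage list Cd68 was not measured, and of the B cell list none was at background. The part of these cells in the carrier values was not tested.

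In the remaining families no gene reached 1.5-fold. The 5 SLC13 carriers of sulfate, citrate and dicarboxylates lay between -0.14 (Slc13a5, the citrate carrier, -0.65 on a dim second probe) and 0.07 (Slc13a4), with Slc13a3 at -0.10. Of the ascorbate carriers, the tubular Slc23a1 read 44.3 and 30.2 (-0.49) and the widely expressed Slc23a2 read 2112 and 2198 (0.12). Among the SLC27 fatty acid carriers, Slc27a3 read 10256 and 7401 (-0.41), Slc27a1 read 807 and 960 (0.31), Slc27a2 gave -0.17 and Slc27a4 0.12. The osmolyte carriers went apart, with Slc5a3 at 0.46 and Slc6a6 at -0.24, and that list had a median of -0.08 over 6 genes. The list of neurotransmitter carriers had a median of 0.04 over 12 genes.

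**Figure D4:**
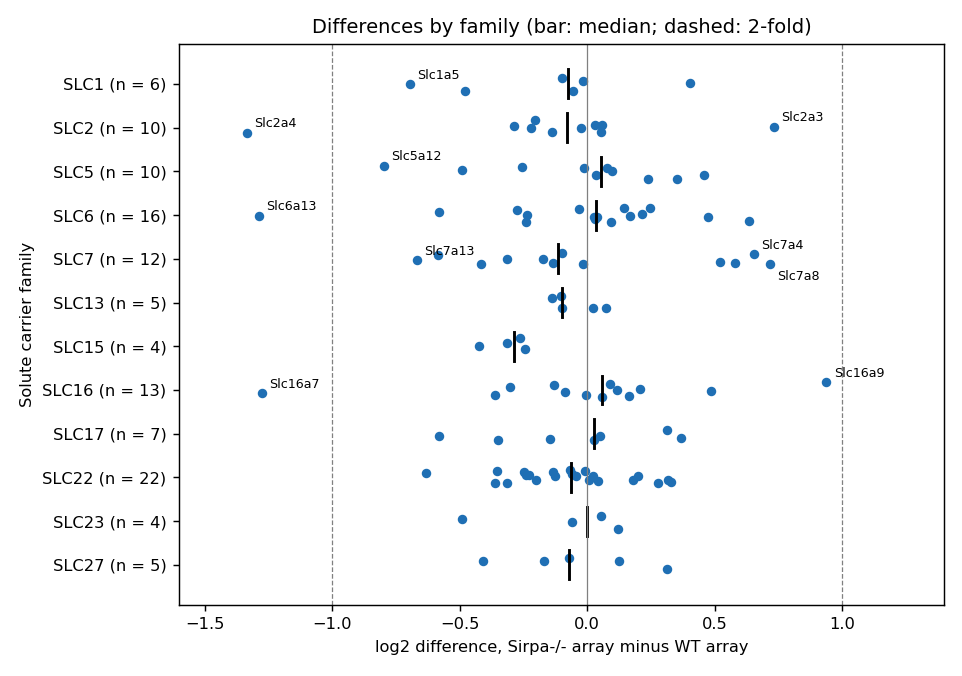
Log2 difference (Sirpa-/- minus WT, x) of each of the 114 measured carriers, in rows by SLC family with the number of genes; black bars are family medians and dashed lines mark 2-fold. Family medians lie between -0.29 (SLC15) and 0.06 (SLC16), and 3 genes lie beyond the left dashed line.

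The carriers known from the proximal tubule lay below 0 more often than not. Of 36 listed genes 34 were measured, and 25 (73.5%) lay below 0, where 49.8% of all genes did, with a median of -0.13 beside 0.00 over all genes. The other 80 measured carriers had a median of 0.02 and 48.8% below 0. The lowest values were those of Slc6a13, Slc5a12, Slc7a13, Slc22a7, Slc17a3, Slc5a2 and Slc23a1, of which only Slc6a13 passed 2-fold. The highest were those of Slc16a9 and Slc7a8, both under 2-fold. With normexp the dim Slc7a13, Slc22a7 and Slc23a1 gave -0.34, -0.10 and -0.04, while the brighter Slc5a12 and Slc17a3 gave -0.69 and -0.57. The summed scaled signal of the list, which weights bright genes most, was 17.96 for WT and 18.31 for the other array, so sum and median differ in direction. The rise of that sum was carried by Slc7a8, the brightest gene of the list (3886 and 6109). With normexp the median was -0.035, with 19 of 34 below 0.

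Proximal tubule markers that are not among these carriers lay below 0 as well, 20 of 24 of them, where 49.8% of all genes did. Their median was -0.26, between -0.28 and -0.18 under the other settings. Their summed scaled signal was 75.9 and 77.2, and none was at background. The rise of that sum was carried by the brightest marker, Cyp4b1 (39652 and 48372, 0.35), which went against the median. In whole glomeruli a smaller amount of tubule carried along and less RNA per tubule cell cannot be told apart. Markers of later nephron segments (loop, distal tubule, collecting duct) went the other way, with 13 of 16 above 0, where 50.2% of all genes were. Their median was 0.57 and their sums 2.97 and 5.09. The values were uneven, from 2.53 (Slc12a3, at 22.6 and 125) to -0.18 (Atp6v1g3), with Aqp2 at 0.15, Aqp3 at 0.05 and Slc12a1 at -0.15. Slc4a1 (0.77) is on this list and on the erythroid list. For podocyte markers (12 genes) only the median, 0.06, lay close to 0, and single genes ran from -0.55 (Nes) to 0.63 (Nphs1). The 10 markers of endothelium were likewise centred at 0.00 but ran from -0.30 (Tie1) to 0.64 (Plvap). Summed scaled signals were 430.5 and 455.5 for podocytes and 337 and 335 for endothelium, and every marker of both lists was measured. The part of tubule content in the carrier values was not tested.

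The partner proteins and regulators of these carriers had a median of -0.02 over 14 genes, with values from -0.26 to 0.72. At 2-fold 0 differed, where 1.56% of all genes were higher and 1.67% lower. At 1.5-fold 1 (7.14%) was higher, where 4.34% of all genes were. Collectrin (Cltrn), which brings neutral amino acid carriers to the apical membrane, gave -0.26, and the scaffold Pdzk1 -0.09. The transcription factor Hnf4a, which drives tubular carrier genes, gave 0.05. Basigin (Bsg) and embigin (Emb), chaperones of the lactate carriers, gave 0.01 and 0.72, and Nfe2l2, the oxidative stress factor that drives Slc7a11, gave 0.38.

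**Figure D5:**
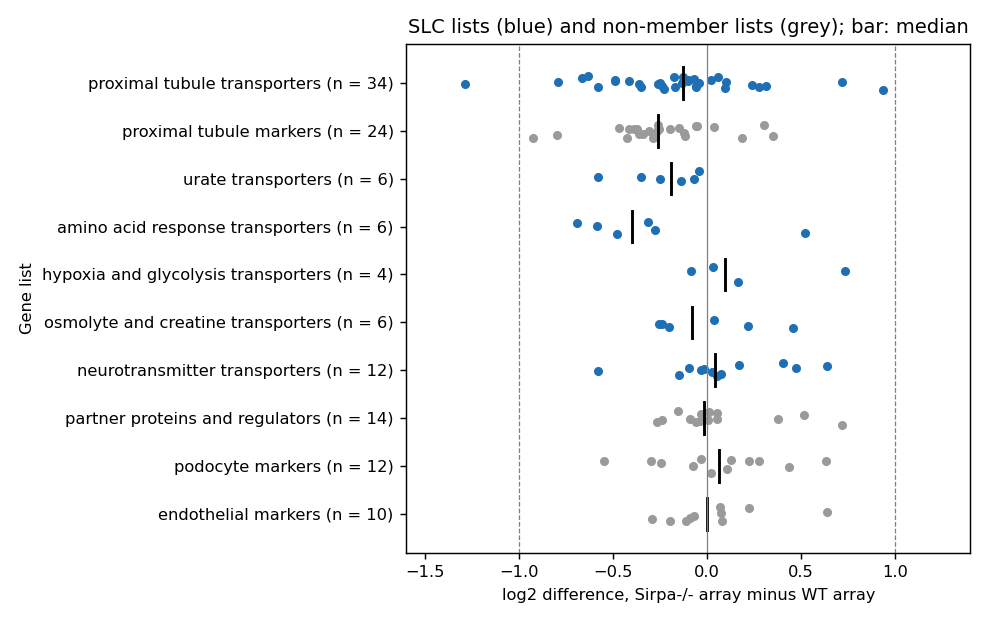
Log2 difference (Sirpa-/- minus WT, x) of the measured genes of each list, with lists of carriers in blue and lists of other genes in grey; black bars are medians and dashed lines mark 2-fold. The amino acid response list has the lowest median (-0.40), and the proximal tubule carriers (-0.13) and proximal tubule markers (-0.26) lie left of 0.

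The 256 other solute carrier genes on the array, such as ion exchangers and mitochondrial carriers, had a median of 0.02 over 237 measured genes. By 2-fold or more, 4 (1.69%) were higher and 7 (2.95%) lower, where 1.56% and 1.67% of all genes were. These shares lie near those of the whole array. The difference between these other carriers and the genes described was not tested.

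Of the genes well above background on 1 array only, Slc22a29 read 10.5 and 7.01, 1.43-fold lower under the Sirpa-/- label. Slc17a7 (VGLUT1, a vesicular glutamate carrier) read 6.78 and 7.52, 1.16-fold higher. A bound sets the detected signal against the lowest signal that the dim array could detect, or against the dim signal itself if that was higher. For these genes the dim signal was higher, so the folds are plain differences (log2 -0.52 and 0.21) with a software error of 0.43 each. The direction of Slc17a7 is thus not settled. Not well above background on either array were Slc1a3, Slc5a1, Slc6a14, Slc7a10, Slc7a11, Slc7a14, Slc15a1, Slc16a14, Slc17a2, Slc22a3 and Slc27a6, of which Slc5a1 is a tubular glucose carrier and Slc15a1 the intestinal peptide carrier.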

How the data were processed

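Per the file headers, the authors extracted the fluorescence intensity of each spot with Agilent Feature Extraction 11.0.1.1, with background subtraction and spatial detrending but without scaling between arrays. Version 9.1 is named in the submitters' processing notes. Other values in the files used here are the error of the processed signal, the spot's median intensity, its local background and quality flags of 0 or 1. In the authors' deposited value table the log2 values have the same quartiles in both columns, and its making was not given in the sources used here. Labelling started from 0.25 µg of RNA.

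From the processed intensity, log2 was taken, spots marked as outliers were dropped, a probe's spots were averaged, and each array's 75th percentile (1157 for WT, 1109 for the other) was subtracted. A probe was measured if on each array over 50% of its spots were flagged well above background; the brightest probe stood for a gene. Of 28684 probes with a RefSeq accession, 27234 matched a symbol of GRCm38.p6, and 12195 probes stayed unnamed. The software error is its relative error on both arrays, combined. The calculation was tested on simulated data. Python 3.11.15, pandas 2.3.3 and limma 3.58.1 were used.

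The members, lists and alternatives were chosen with earlier results of these data known. Named genes were the members at 2-fold or with a bound of 2-fold, the 10 highest and 10 lowest, the 4 largest of each family and list, those whose probes differed by 1 or more, and a fixed set; others were named to complete a group after their values were seen. Some named genes are not reported here.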

Additional observations from a re-analysis of the deposited data

How the results depend on the processing

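The count of carriers at least 2-fold lower was 3, and it was 1 with normexp background correction and 1 when only probes at or above both arrays' median signals were kept, Slc2a4 in each. It was 8 at a threshold of 1.5-fold and 0 at 3-fold, and the count of carriers at least 2-fold higher, 0 as reported, was 5 at 1.5-fold. With normexp the median was 0.073 for all carriers, -0.035 for those of the proximal tubule and 0.090 for the others, where that of all genes was 0.07. That setting adds an offset that shrinks dim differences, and the share of higher genes among all at 2-fold was 58.9% there against 48.4%. Quantile normalization, median centring, loess, spike-in scaling, the authors' deposited log2 values, no filter, the mean of probes and the dimmest probe kept these results within the technical spread or within 1.5 times the count. So did the spot median minus local background, which was added after the data were seen and left Slc2a4 and Slc6a13 at 2-fold. The technical spread of 0.07 is wider than the medians of all carriers (-0.04) and of the others (0.02), so it does not settle their sign. The median of the others was -0.02 with quantile normalization and with the authors' values, and -0.05 with the spot median minus local background. Naming probes by a gene name column was not run, since the scanner files used here pair probes with accessions only. No paired analysis was possible because each group had 1 array. The number of arrays limits all of these values.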
